A study of Mus musculus with 8 samples.

Results

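The genes described here are 50 mouse genes of the mitotic machinery, chosen as a list of names. They comprise 4 mitotic kinases, 3 partners of Aurora B in the chromosomal passenger complex, 5 spindle checkpoint genes, 3 genes of anaphase-promoting complex (APC/C) activation, 11 centromere and kinetochore genes, 9 kinesins, 7 spindle and cytokinesis genes, 5 condensin subunits, and a last group of Mki67, Top2a and Foxm1. Each name matched 1 identifier among the 54532 genes of the deposited read count table, and all 50 were among the 15009 genes with enough reads to be tested. RNA came from mouse bone marrow LSK cells, that is, cells without lineage markers and positive for Sca-1 and c-Kit, the fraction that holds blood stem cells and early multipotent progenitors. AML1/ETO mice, whose genotype label is Runx1-Runx1t1, gave 3 libraries and wild-type control mice gave 5. AML1/ETO is the fusion protein made by the t(8;21) translocation of acute myeloid leukaemia. All mice were C57BL/6, and both groups received poly(I:C), an inducer of interferon, in 4 injections of 5 mg/kg on alternate days. The LSK cells were sorted 4 weeks after treatment. The sources used here do not give the design of the fusion allele, what drives it, or the age and sex of the mice. The labels do not say whether libraries came from separate mice, so the spread behind the p-values is that between libraries and may be technical.

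In a dividing cell, condensins compact the chromosomes, kinetochores built on the centromere attach them to spindle microtubules, and kinesins and microtubule-binding proteins shape the spindle. Aurora and Polo-like kinases drive these steps, and the spindle checkpoint holds back the APC/C until every chromosome is attached. Most of these genes are transcribed in G2 and mitosis under FOXM1 and B-MYB and are shut off by the DREAM complex in resting cells, so their mRNA in a cell population is widely read as a proxy of cycling. Blood stem cells in adult marrow are mostly quiescent, whereas multipotent progenitors, which share the LSK gate, cycle more.

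Library totals ran from 14693080 to 16433454 reads for AML1/ETO and from 16374232 to 17527043 reads in the controls. Values below are in CPM, counts scaled to a common library size with TMM factors, in the order AML1/ETO libraries 1 to 3 and control libraries 1 to 5, and fold changes are on the log2 scale, AML1/ETO over control. Adjusted p-values are from edgeR's quasi-likelihood test with Benjamini-Hochberg adjustment over all 15009 genes, at a threshold of 0.05. "Fell" is used only of genes past it. Runx1t1, the fusion partner, had 53.9, 123 and 105 CPM in the AML1/ETO libraries and 2.40, 1.58, 5.55, 7.68 and 1.66 CPM in the controls, so the libraries matched their labels. Xist was read 28559 to 33151 times in AML1/ETO libraries and 0 to 111 times in controls, and Y-linked Ddx3y 0 times in every AML1/ETO library and 3688 to 5038 times in controls, so sex and genotype cannot be told apart. Dropout was uneven. Of genes for which the other libraries of the same group predict 100 to 200 reads, 4.01%, 3.60% and 5.63% were at 0 in AML1/ETO libraries 1 to 3 and 5.62% in control 1, whereas controls 2 to 5 had 0% to 0.754%. Dropout thus moved with genotype apart from control 1, and its part in the results was not tested. The prediction rests on fewer libraries for AML1/ETO than for controls, and spread within a group also counts in it. The rates of the 2 groups are therefore not fully alike as measures. In bulk RNA, fewer dividing cells and less RNA per cell cannot be told apart, and this holds for every fall below.

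Promoter letters known from G2 and mitosis genes are shown first, because genes that fell and genes that did not pass the test both hold them. The cell cycle genes homology region (CHR), TTTGAA or TTCGAA, is the element that DREAM and the B-MYB complex bind, and CCAAT is bound by NF-Y. RefSeq promoter windows (GRCm38.p6, from 250 bases before to 50 bases after the start) were matched for 43 of the 50 genes. The genes with no matched window were Aurkb, Foxm1, Incenp, Kif20a, Smc4, Spc24 and Tpx2. The windows printed here run 5′ to 3′ on the gene's strand, in lower case with each CHR and CCAAT match on either strand in capitals. Mki67 at chr7:135716330-135716629 (minus strand), Top2a at chr11:99024140-99024439 (minus strand), Kif11 at chr19:37376132-37376431 (plus strand) and Bub1 at chr2:127831810-127832109 (minus strand) are genes that fell and hold both elements.
Mki67: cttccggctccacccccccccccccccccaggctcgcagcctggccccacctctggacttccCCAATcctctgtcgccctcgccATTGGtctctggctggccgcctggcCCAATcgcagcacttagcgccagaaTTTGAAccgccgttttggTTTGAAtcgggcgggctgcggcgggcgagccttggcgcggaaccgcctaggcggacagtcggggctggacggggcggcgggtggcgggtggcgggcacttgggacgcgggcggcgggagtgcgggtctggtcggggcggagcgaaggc
Top2a: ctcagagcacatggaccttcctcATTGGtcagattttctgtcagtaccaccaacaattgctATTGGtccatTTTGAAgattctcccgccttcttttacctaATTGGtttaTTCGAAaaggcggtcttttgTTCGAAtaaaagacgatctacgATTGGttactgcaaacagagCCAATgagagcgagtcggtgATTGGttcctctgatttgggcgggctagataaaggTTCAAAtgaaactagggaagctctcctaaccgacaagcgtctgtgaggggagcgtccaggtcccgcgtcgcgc
Kif11: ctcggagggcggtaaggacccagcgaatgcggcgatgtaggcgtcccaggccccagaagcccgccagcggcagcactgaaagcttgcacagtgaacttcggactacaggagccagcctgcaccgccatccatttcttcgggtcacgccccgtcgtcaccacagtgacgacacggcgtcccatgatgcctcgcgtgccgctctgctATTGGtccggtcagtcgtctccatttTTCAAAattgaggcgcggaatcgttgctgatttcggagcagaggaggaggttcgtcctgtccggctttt
Bub1: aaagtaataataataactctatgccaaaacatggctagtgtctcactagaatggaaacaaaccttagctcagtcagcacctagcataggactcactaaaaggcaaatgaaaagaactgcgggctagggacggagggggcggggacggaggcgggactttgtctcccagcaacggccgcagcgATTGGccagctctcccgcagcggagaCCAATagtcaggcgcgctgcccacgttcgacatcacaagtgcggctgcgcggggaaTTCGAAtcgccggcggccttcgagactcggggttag
Plk1 at chr7:122159185-122159484 (plus strand) and Hmmr at chr11:40733388-40733687 (minus strand) hold both elements and did not pass the test.
Plk1: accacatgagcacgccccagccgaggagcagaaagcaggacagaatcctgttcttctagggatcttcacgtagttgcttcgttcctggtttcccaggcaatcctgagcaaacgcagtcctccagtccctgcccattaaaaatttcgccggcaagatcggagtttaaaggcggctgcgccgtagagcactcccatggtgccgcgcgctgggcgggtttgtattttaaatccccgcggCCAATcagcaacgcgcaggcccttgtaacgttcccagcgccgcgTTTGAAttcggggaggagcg
Hmmr: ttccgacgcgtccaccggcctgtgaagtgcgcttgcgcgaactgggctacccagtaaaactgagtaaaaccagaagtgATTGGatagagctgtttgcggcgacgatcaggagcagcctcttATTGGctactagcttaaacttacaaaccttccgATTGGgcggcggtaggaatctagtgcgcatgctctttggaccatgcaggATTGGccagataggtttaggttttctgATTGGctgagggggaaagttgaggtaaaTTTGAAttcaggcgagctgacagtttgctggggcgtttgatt
Plk4 at chr3:40799701-40800000 (plus strand) fell and holds neither.
Plk4: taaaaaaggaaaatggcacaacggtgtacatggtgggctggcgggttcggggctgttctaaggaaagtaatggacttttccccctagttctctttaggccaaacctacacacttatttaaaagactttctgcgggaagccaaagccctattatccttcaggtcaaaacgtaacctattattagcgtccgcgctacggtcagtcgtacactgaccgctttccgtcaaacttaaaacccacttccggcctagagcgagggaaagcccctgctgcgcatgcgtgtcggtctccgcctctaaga

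CHR letters were found in any window of 32 of the 43 genes (74.4%), against 21.7% of 27025 genes in the same RefSeq table. CCAAT, read on both strands, was found in 30 (69.8%), against 41.1% of all genes. Both occurred together in 26 (60.5%), against 8.61% of all genes. TTTGAA made up most of the matches, with 30 genes, and the palindrome TTCGAA was in 4. CHR letters were in 15 of 21 matched genes that fell (71.4%) and in 17 of 22 matched genes that did not pass the test (77.3%). A match is a run of letters and not evidence of binding. Matches of CHR and CCAAT shared bases in 1 of the 43 genes.

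**Figure D1:**
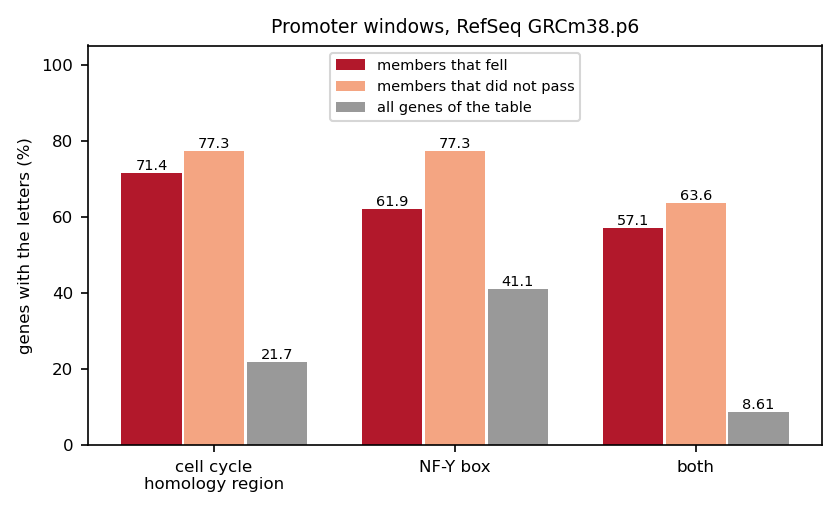
Share of genes (%) with CHR letters, with CCAAT (NF-Y box) and with both in their RefSeq promoter windows, as bars from 0, for the genes that fell, those that did not pass the test and all genes of the table. Both sets of mitotic genes stand above all genes in each pair of bars, with CHR letters in 71.4% and 77.3% against 21.7%.

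Summed expression of the mitotic genes was lower in every AML1/ETO library than in any control. Of the 50 genes, 26 fell (52%), none rose and 24 did not pass the test, where 14.2% of all tested genes fell and 11.6% rose. The log2 fold change was negative for 49 of 50, the exception being Smc4, and its median was -1.30, against -0.09 over all tested genes. By fold of means, 32 genes (64%) were at least 2-fold lower, where 21.2% of all tested genes were, and 6 were at least 4-fold lower. At an unadjusted p under 0.05, 32 genes were lower and 0 higher. Shares of all tested genes at the unadjusted p and at 4-fold are not given here. DESeq2 called 29 lower and 0 higher, where 2681 of 15814 genes were lower and 2295 higher. With limma-voom the calls were 26 and 0, where 1915 of 15009 genes were lower and 2017 higher. The sum over the 50 genes was 1718, 2273 and 1213 CPM in the AML1/ETO libraries and 3505, 3994, 4124, 3783 and 3996 CPM in the controls. No library of the one group reached the range of the other.

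**Figure D2:**
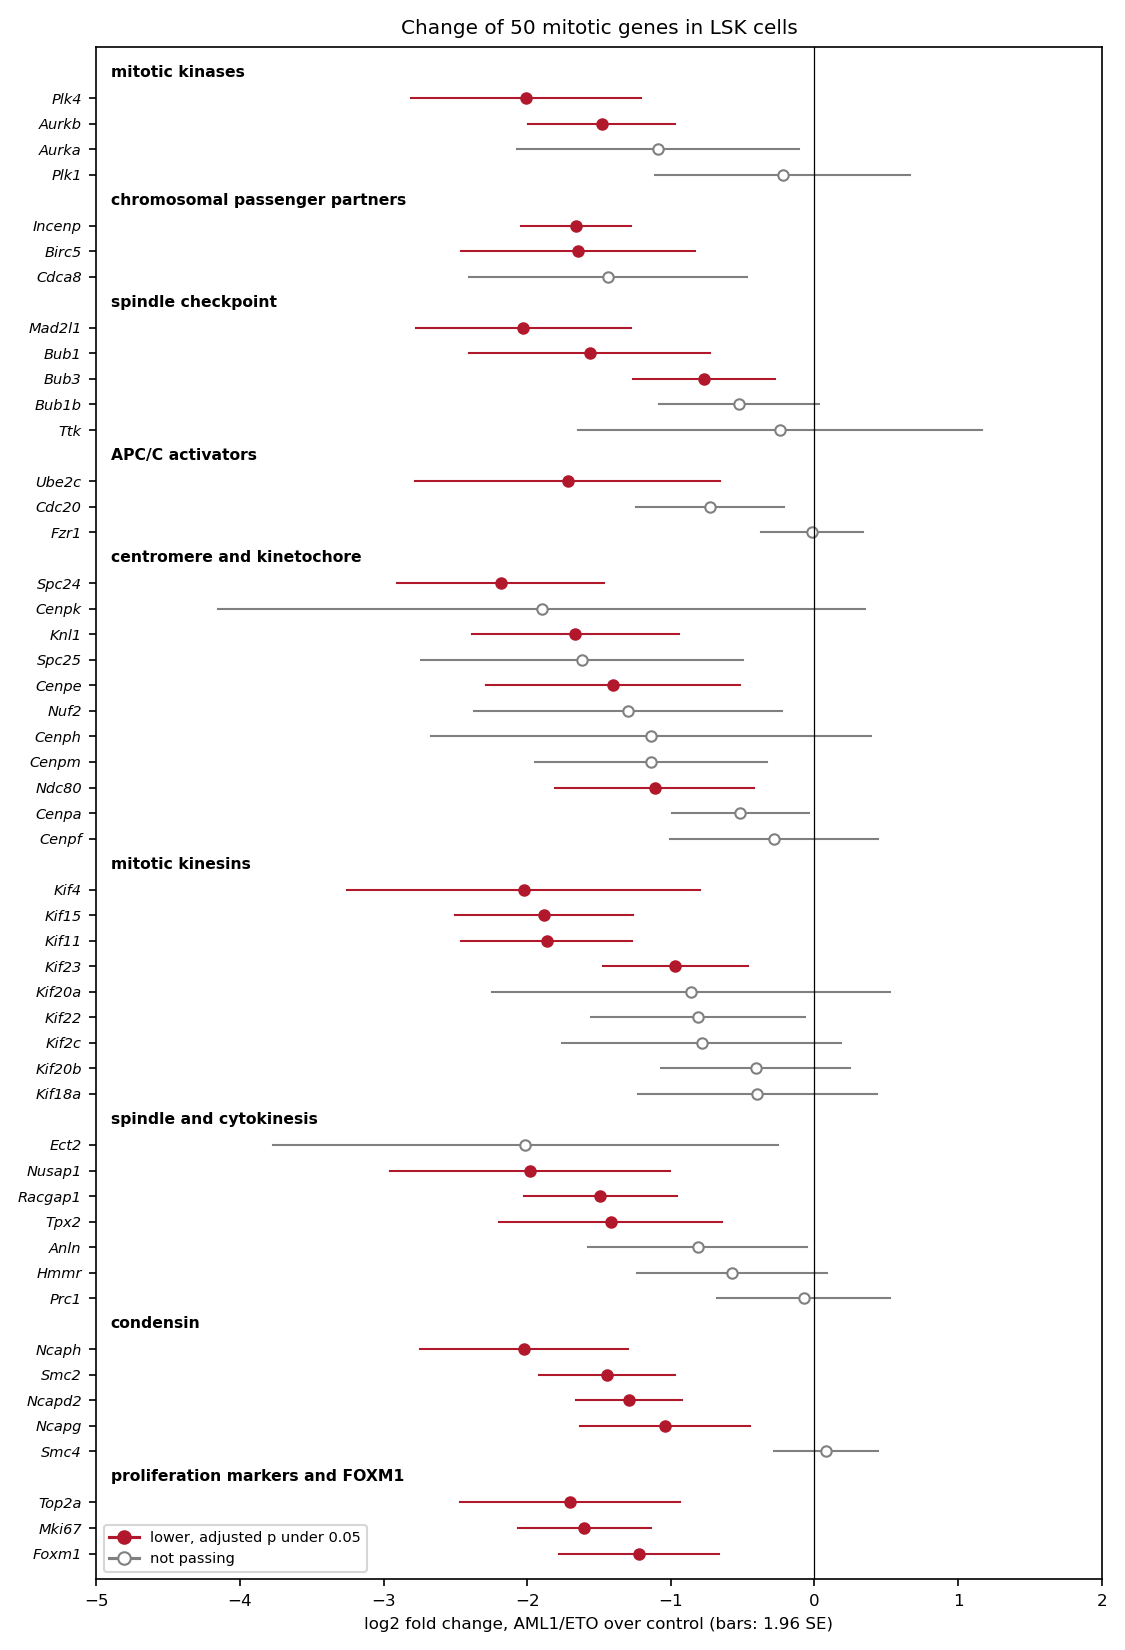
Log2 fold change, AML1/ETO over control, of each of the 50 genes by functional group, with its 95% confidence interval as a bar, filled points for genes that fell and open points for those that did not pass the test. All points but Smc4 lie left of 0, and the medians of the groups lie between -0.73 and -1.65.

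The 26 that fell had a median log2 fold change of -1.62, a median control level of 58.2 CPM and a median SE of 0.36. The other 24 had a median log2 fold change of -0.76, a control level of 27.1 CPM and an SE of 0.42. Fold change and SE enter the p-value that divides the sets, so their contrast is set in part by that division. Every AML1/ETO library lay below every control for 27 genes (54%), which was so for 17.5% of all tested genes. These were 23 of the fallen genes plus Cdca8, Cenpm, Spc25 and Ect2. Bub3, Ube2c and Ndc80 fell although their groups overlapped. Of the 26 falls, 17 were called under all alternatives that could be run. The other 9 (Bub1, Bub3, Ube2c, Cenpe, Ndc80, Kif23, Kif4, Tpx2 and Ncapg) lost the call when 1 library or more was left out, as given with each gene. Of the 24 that did not pass, 13 passed under no alternative. With a library left out 10 passed, 7 of them without AML1/ETO library 2. Of 18 alternatives, these 10 passed under few: Cdca8 under 5, Spc25 and Cenpa under 3, and Cdc20 and Ect2 under 2. Aurka, Nuf2, Cenph, Kif22 and Kif2c each passed under 1.

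**Figure D3:**
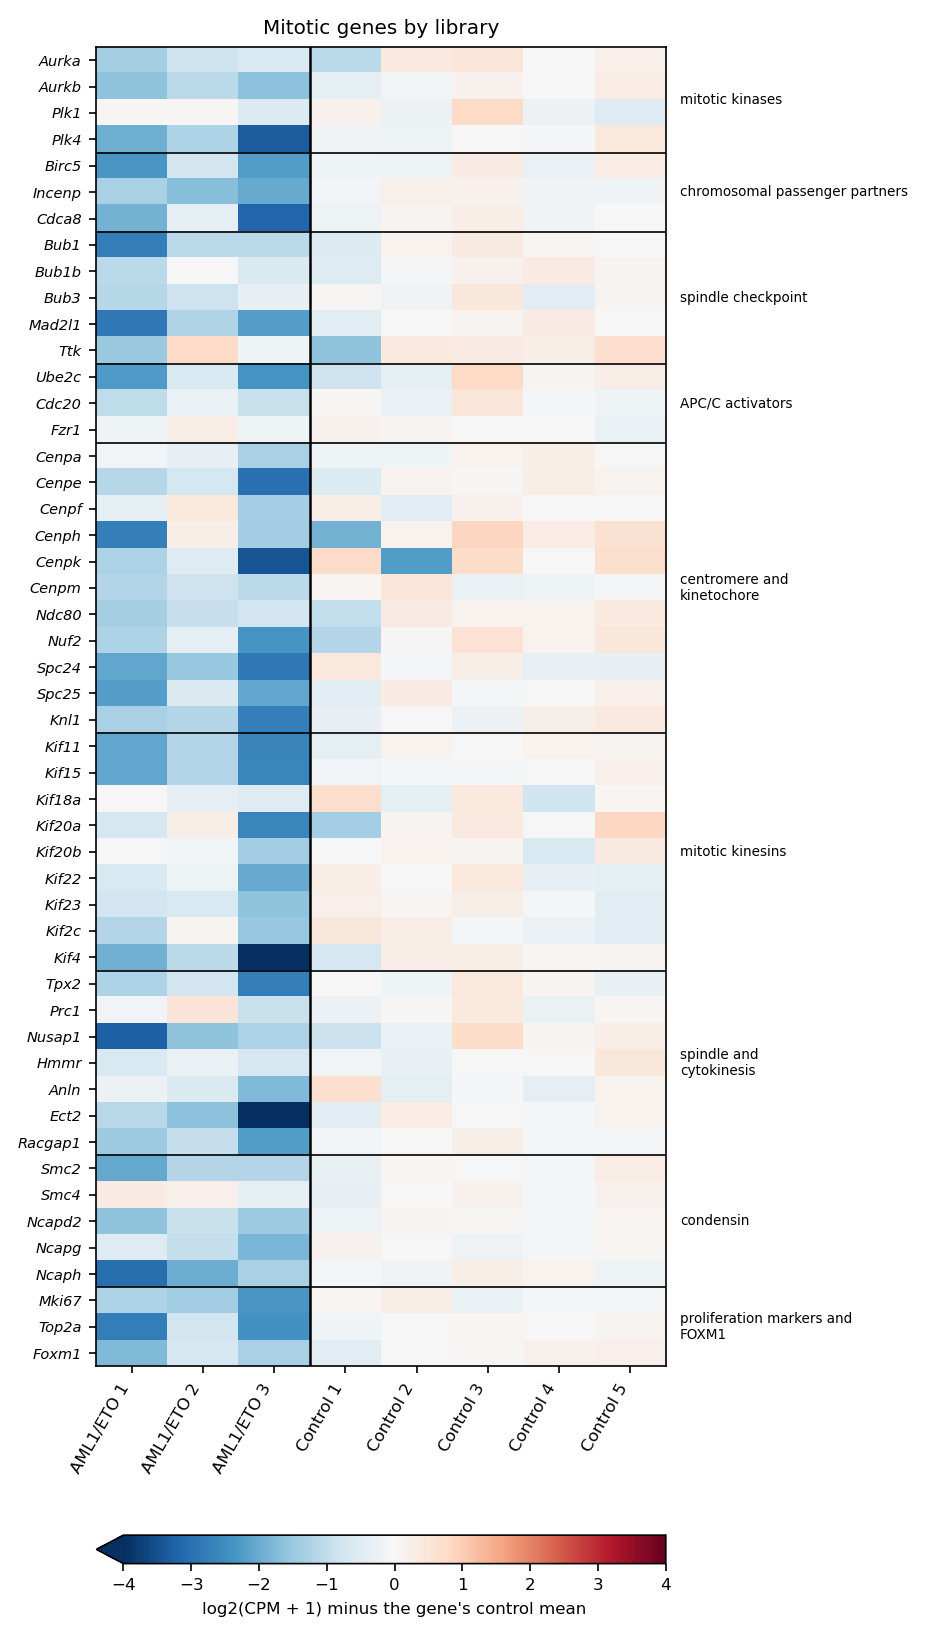
Log2 difference of each gene in each library from its mean over the controls, in log2(CPM + 1), AML1/ETO libraries on the left and controls on the right, with values under the end of the colour scale drawn in its last colour. AML1/ETO library 2 was the highest of its group for 33 genes and AML1/ETO library 3 the lowest for 31. The same ranks over all tested genes are not given here.

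All 3 of the general proliferation genes fell, each by more than 2-fold of means. Mki67 encodes Ki-67, which coats mitotic chromosomes and is the standard histological marker of cycling cells (chr7:135689784-135716361, minus strand). It had 263, 236 and 124 CPM in the AML1/ETO libraries, against 668, 749.8, 521, 611 and 605 CPM in the controls. The lowest control was well above the highest AML1/ETO library, and the gene fell 3.04-fold by means (log2 fold change -1.60 with SE 0.24, adjusted p = 0.000496). Top2a, the topoisomerase that untangles sister chromatids (chr11:98992943-99024189, minus strand), had 43.5, 178 and 54.4 CPM in the AML1/ETO libraries and 263, 301, 313, 299 and 322 CPM in the controls. The controls were tight and AML1/ETO library 2 stood well above the other 2 of its group, yet under every control (log2 fold change -1.70 with SE 0.39, adjusted p = 0.00754). Foxm1, the transcription factor that activates the G2 and mitosis genes, had 16.1, 35.2 and 22.6 CPM in the AML1/ETO libraries, against 41.2, 57.01, 59.3, 64.4 and 65.7 CPM in the controls. It also fell without overlap (log2 fold change -1.22 with SE 0.28, adjusted p = 0.00799). The ratio of Top2a to Mki67 within a library was 0.452 ± 0.293 in AML1/ETO cells and 0.483 ± 0.0877 in controls (SD, n = 3 and 5), and these ranges overlapped.

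Of the 4 mitotic kinases, Aurkb and Plk4 fell and Aurka and Plk1 did not pass the test. Aurkb, the catalytic subunit of the chromosomal passenger complex, which corrects faulty attachments, had 14.99, 22.2 and 14.7 CPM in AML1/ETO cells and 37.2, 44.5, 53.8, 47.1 and 59.1 CPM in controls. The groups did not overlap (log2 fold change -1.48 with SE 0.26, adjusted p = 0.00154). Plk4, which licenses centriole duplication, had 19.1, 31.6 and 6.67 CPM in AML1/ETO cells and 68.5, 65.7, 76.1, 72.3 and 102 CPM in controls. It showed the largest change among the kinases, and control 5 stood above the other controls (log2 fold change -2.01 with SE 0.41, adjusted p = 0.00381). Aurka, the Aurora kinase of centrosomes and spindle poles, had 4.47, 6.75 and 8.18 CPM in the AML1/ETO libraries, against 5.56, 17.1, 18.2, 13.04 and 15.03 CPM in the controls. Control 1 lay within the AML1/ETO range (log2 fold change -1.09 with SE 0.50, adjusted p = 0.132), and without that library the gene passed (log2 fold change -1.26, adjusted p = 0.0443). Plk1, the Polo-like kinase of mitotic entry, had 12.3, 12.2 and 7.72 CPM in the AML1/ETO libraries and 13.4, 9.97, 21.4, 9.78 and 8.03 CPM in the controls. AML1/ETO library 3 was lowest of all 8 and controls 1 and 3 highest, with the other libraries of both groups between them (log2 fold change -0.22 with SE 0.45, adjusted p = 0.790), and its sign turned without control 3 (0.10).

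Aurora B acts together with survivin, INCENP and borealin, and 2 of these 3 partners fell. Incenp, the scaffold that holds the kinase (chr19:9872296-9899551, minus strand), had 90.8, 69.2 and 55.5 CPM in AML1/ETO cells and 209, 261, 253, 207 and 206 CPM in controls. It had the smallest adjusted p of all 50 genes and was 3.16-fold lower by means (log2 fold change -1.66 with SE 0.20, adjusted p = 0.000109). Birc5, which encodes survivin, had 7.27, 23.9 and 7.78 CPM in AML1/ETO cells, against 35.4, 34.95, 51.1, 33.4 and 48.9 CPM in controls. Library 2 of the AML1/ETO group was the nearest to the controls but still below them (log2 fold change -1.65 with SE 0.41, adjusted p = 0.0125). Cdca8, borealin, had 16.7, 48.7 and 6.28 CPM in the AML1/ETO libraries and 55.7, 69.7, 77.1, 57.8 and 63.3 CPM in the controls. Its groups did not overlap either, but it narrowly missed the threshold (log2 fold change -1.44 with SE 0.49, adjusted p = 0.0519), and it passed without AML1/ETO library 2 (log2 fold change -2.50, adjusted p = 0.000684). The ratio of Aurkb to Incenp within a library was 0.250 ± 0.0790 in AML1/ETO cells and 0.215 ± 0.0468 in controls (SD, n = 3 and 5), with overlapping ranges.

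The spindle checkpoint genes divided, with Mad2l1, Bub1 and Bub3 lower and Bub1b and Ttk not past the test. Mad2l1 encodes MAD2, which binds and blocks CDC20, and it had 6.44, 22.6 and 10.8 CPM in AML1/ETO cells and 39.7, 53.3, 57.4, 67.2 and 53.5 CPM in controls. It was 4.08-fold lower by means with no overlap (log2 fold change -2.03 with SE 0.38, adjusted p = 0.00239). Bub1, a kinase that marks the inner centromere, had 3.94, 14.8 and 14.9 CPM in AML1/ETO cells, against 22.1, 35.8, 42.1, 33.9 and 32.1 CPM in controls. All its AML1/ETO values lay below the controls (log2 fold change -1.56 with SE 0.43, adjusted p = 0.0191), and the call was lost narrowly without control 3 (adjusted p = 0.0529). Bub3, the shared partner of BUB1 and BUBR1, had 36.4, 44.9 and 64.4 CPM in AML1/ETO cells and 83.6, 73.1, 111, 58.7 and 87.8 CPM in controls. AML1/ETO library 3 was above control 4, and the fall was the smallest of the 26 (log2 fold change -0.77 with SE 0.25, adjusted p = 0.0421). Its call was lost without any 1 of AML1/ETO 1 (adjusted p = 0.113), AML1/ETO 2 (0.104), control 1 (0.0767), control 2 (0.0726), control 3 (0.110) or control 5 (0.0920). Bub1b, which encodes BUBR1 of the mitotic checkpoint complex, had 22.9, 49.2 and 32.5 CPM in the AML1/ETO libraries and 34.2, 46.4, 55.4, 61.6 and 53.3 CPM in the controls. The groups overlapped (log2 fold change -0.53 with SE 0.28, adjusted p = 0.204). Ttk, the MPS1 kinase that starts checkpoint signalling, had 2.12, 13.7 and 6.74 CPM in the AML1/ETO libraries and 1.87, 10.5, 9.90, 9.20 and 13.02 CPM in the controls. It had the lowest control level of the 50 and fully overlapping groups (log2 fold change -0.24 with SE 0.72, adjusted p = 0.863), and its sign turned without AML1/ETO library 1 (0.20). The ratio of Bub1 to Bub1b within a library was 0.311 ± 0.144 in AML1/ETO cells and 0.666 ± 0.0967 in controls (SD, n = 3 and 5), without overlap.

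Among the genes that activate the APC/C, the ubiquitin ligase whose work ends mitosis, Ube2c fell and Cdc20 and Fzr1 did not pass the test. Ube2c, the ubiquitin-conjugating enzyme of the APC/C, had 4.85, 17.3 and 4.38 CPM in AML1/ETO cells and 14.8, 20.9, 47.8, 29.3 and 32.9 CPM in controls. The value of AML1/ETO library 2 exceeded that of control 1, and the controls spread widely (log2 fold change -1.72 with SE 0.54, adjusted p = 0.0360). The call was lost without AML1/ETO 1 (adjusted p = 0.0925), AML1/ETO 3 (0.110), control 2 (0.0527), control 3 (0.0945), control 4 (0.0696) or control 5 (0.0750). Of its exon bases, 22.8% overlap Tnnc2 on the opposite strand, and the sources used here do not give the strand setting of the counting. Cdc20, the mitotic activator, had 24.6, 42.2 and 27.3 CPM in the AML1/ETO libraries, against 52.6, 42.1, 72.1, 47.9 and 45.2 CPM in the controls. Only AML1/ETO library 2 and control 2 met (log2 fold change -0.73 with SE 0.26, adjusted p = 0.0625), and the gene passed without AML1/ETO library 2 (log2 fold change -1.01, adjusted p = 0.0228). Fzr1 encodes CDH1, the activator used from late mitosis through G1 and in resting cells, and it had 75.9, 104 and 76.00 CPM in the AML1/ETO libraries and 97.5, 92.4, 87.2, 84.4 and 70.5 CPM in the controls. Its estimate lay nearest to 0 of all 50 genes (log2 fold change -0.02 with SE 0.18, adjusted p = 0.965), with a 95% interval from -0.37 to 0.34, and its sign turned under DESeq2 size factors and upper-quartile scaling. Within a library, the ratio of Cdc20 to Fzr1 was 0.363 ± 0.0404 in AML1/ETO cells and 0.606 ± 0.140 in controls (SD, n = 3 and 5), and the ranges did not overlap.

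Of the 11 centromere and kinetochore genes, 4 fell and 7 did not pass the test, and all 11 estimates were negative. The 4 that fell were Spc24, Knl1, Ndc80 and Cenpe, and no difference between parts of the kinetochore was tested. Spc24, of the NDC80 complex (chr9:21755442-21760303, minus strand), had 9.54, 14.4 and 5.10 CPM in AML1/ETO cells and 57.96, 42.1, 51.2, 34.6 and 34.4 CPM in controls. It showed the largest fall of the 50 genes, 4.55-fold by means and without overlap (log2 fold change -2.19 with SE 0.37, adjusted p = 0.00114). Knl1, the scaffold that recruits BUB proteins, had 21.8, 23.9 and 7.46 CPM in AML1/ETO cells, against 43.4, 54.3, 46.6, 64.4 and 72.2 CPM in controls. All AML1/ETO values were lower, library 3 most of all (log2 fold change -1.66 with SE 0.37, adjusted p = 0.00608). Ndc80, which binds the microtubule, had 11.1, 14.7 and 16.7 CPM in AML1/ETO cells and 14.1, 36.5, 32.2, 32.2 and 38.03 CPM in controls. Control 1 was far below the other controls and within the AML1/ETO range (log2 fold change -1.11 with SE 0.35, adjusted p = 0.0378). Its call held without control 1 (adjusted p = 0.00682) and was lost without any other library, at adjusted p = 0.0960, 0.0721 and 0.0549 without AML1/ETO 1 to 3 and 0.0992, 0.0837, 0.0841 and 0.0936 without controls 2 to 5. Cenpe, a kinesin that carries chromosomes to the spindle equator, had 20.1, 27.6 and 4.84 CPM in AML1/ETO cells and 30.7, 49.7, 46.9, 54.1 and 50.02 CPM in controls. Its groups did not overlap (log2 fold change -1.40 with SE 0.45, adjusted p = 0.0401). The call was lost without AML1/ETO 1 (adjusted p = 0.0550) and without control 2 (0.0847), control 3 (0.0786), control 4 (0.0882) or control 5 (0.0819).

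The remaining NDC80 complex genes lay lower without passing. Spc25, the partner of SPC24, had 2.20, 8.87 and 2.49 CPM in the AML1/ETO libraries and 9.77, 17.3, 12.9, 13.8 and 15.8 CPM in the controls. The groups did not overlap, and the p-value missed the threshold narrowly (log2 fold change -1.62 with SE 0.57, adjusted p = 0.0576). Nuf2, the partner of NDC80, had 8.40, 16.2 and 3.27 CPM in the AML1/ETO libraries and 8.71, 21.6, 31.7, 23.2 and 29.5 CPM in the controls. Control 1 was again low, inside the AML1/ETO range (log2 fold change -1.30 with SE 0.55, adjusted p = 0.103). Without AML1/ETO library 2 both genes passed, Spc25 at -2.57 in log2 (adjusted p = 0.00685) and Nuf2 at -1.98 (adjusted p = 0.0304). Of the 18 alternatives, Spc25 passed under 3 and Nuf2 under 1. The ratio of Spc24 to Ndc80 within a library was 0.716 ± 0.360 in AML1/ETO cells and 1.77 ± 1.34 in controls (SD, n = 3 and 5), with overlap.

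The other centromere proteins did not pass the test. Cenpa, the histone H3 variant that defines the centromere, had 148, 127 and 64.2 CPM in the AML1/ETO libraries and 144, 143, 177, 189 and 158 CPM in the controls. AML1/ETO library 1 lay within the controls (log2 fold change -0.52 with SE 0.24, adjusted p = 0.141). Without that library it passed (log2 fold change -0.77, adjusted p = 0.0392). Cenpm, of the constitutive centromere network, had 5.83, 7.56 and 6.47 CPM in the AML1/ETO libraries and 15.03, 20.3, 11.7, 12.3 and 13.5 CPM in the controls. Its groups did not overlap at these low levels (log2 fold change -1.14 with SE 0.41, adjusted p = 0.0630). Cenph, of the same network, had 1.44, 18.2 and 5.10 CPM in the AML1/ETO libraries, against 3.33, 16.7, 28.3, 18.7 and 23.8 CPM in the controls. Library 1 was lowest in both groups (log2 fold change -1.14 with SE 0.78, adjusted p = 0.329), and the gene passed without AML1/ETO library 2 (log2 fold change -2.47, adjusted p = 0.0497). Cenpk, another network member, had 3.56, 6.69 and 0 CPM in the AML1/ETO libraries and 17.8, 1.35, 17.5, 10.1 and 16.98 CPM in the controls. It had 47, 107 and 0 reads in the AML1/ETO libraries, and control 2 was as low as they were (log2 fold change -1.90 with SE 1.15, adjusted p = 0.261). Cenpf, a large coiled-coil protein that reaches the outer kinetochore in mitosis, had 23.9, 41.7 and 11.4 CPM in the AML1/ETO libraries and 37.7, 22.8, 34.6, 30.2 and 30.98 CPM in the controls. The highest value of all was that of AML1/ETO library 2 (log2 fold change -0.28 with SE 0.37, adjusted p = 0.650), and the sign turned without AML1/ETO library 3 (0.06).

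Of the 9 kinesins, 4 fell and 5 did not pass the test, and the median log2 fold change was -0.86. Kif11 and Kif15, which push the spindle poles apart, had the smallest adjusted p among them. Kif11, which encodes Eg5, the main motor of spindle bipolarity (chr19:37376403-37421859, plus strand), had 34.98, 67.7 and 23.8 CPM in AML1/ETO cells and 119, 167, 151, 168 and 163 CPM in controls. It was 3.64-fold lower by means, and its highest AML1/ETO library lay well under its lowest control (log2 fold change -1.86 with SE 0.30, adjusted p = 0.000954). Kif15, which can take over from Eg5 in human cells, had 15.4, 29.2 and 10.3 CPM in AML1/ETO cells, against 62.8, 65.9, 63.6, 68.00 and 77.96 CPM in controls. The controls lay close together and far above the AML1/ETO libraries (log2 fold change -1.88 with SE 0.32, adjusted p = 0.00111). Kif4, the X-linked chromokinesin that works with PRC1 and condensin, had 14.4, 27.3 and 1.64 CPM in AML1/ETO cells and 34.6, 69.5, 69.5, 58.7 and 62.01 CPM in controls. AML1/ETO library 3 was nearly without reads and no library crossed groups (log2 fold change -2.03 with SE 0.63, adjusted p = 0.0338). Its call was lost without AML1/ETO 1 (adjusted p = 0.0648) or any of controls 2 to 5 (0.0723, 0.0723, 0.0651 and 0.0678), and 15.1% of its exon bases overlap Pdzd11 on the other strand. Kif23, the motor of the centralspindlin complex in cytokinesis, had 46.7, 51.7 and 25.8 CPM in AML1/ETO cells and 91.7, 83.9, 94.3, 77.3 and 57.9 CPM in controls. The groups came close, at AML1/ETO 2 and control 5, without crossing (log2 fold change -0.97 with SE 0.26, adjusted p = 0.0168), and the call was narrowly lost without AML1/ETO library 3 (adjusted p = 0.0512).

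The 5 other kinesins had overlapping groups. Kif22, a chromokinesin that moves chromosome arms, had 30.4, 40.5 and 10.8 CPM in the AML1/ETO libraries and 56.3, 46.4, 62.5, 36.97 and 36.5 CPM in the controls. Controls 4 and 5 lay below AML1/ETO library 2 (log2 fold change -0.81 with SE 0.38, adjusted p = 0.139). Kif2c, a microtubule depolymerase at the centromere, had 5.91, 15.8 and 4.51 CPM in the AML1/ETO libraries, against 20.4, 17.8, 14.02, 12.4 and 10.8 CPM in the controls. It too was near the controls in AML1/ETO library 2 alone (log2 fold change -0.78 with SE 0.50, adjusted p = 0.283), and without that library both passed, Kif22 with adjusted p = 0.0493 and Kif2c with 0.0481. Kif20a, which brings the passenger complex to the midzone, had 7.87, 15.9 and 1.37 CPM in the AML1/ETO libraries and 4.68, 14.7, 18.1, 13.7 and 24.9 CPM in the controls. It shares 29.3% of its exon bases with Cdc23 on the opposite strand, so its reads are uncertain (log2 fold change -0.86 with SE 0.71, adjusted p = 0.429). Kif20b, a relative that acts in abscission, had 46.1, 42.4 and 16.5 CPM in the AML1/ETO libraries and 45.2, 50.1, 48.7, 29.6 and 58.8 CPM in the controls. Only AML1/ETO library 3 was under all controls (log2 fold change -0.41 with SE 0.34, adjusted p = 0.428). Kif18a, which limits the length of kinetochore microtubules, had 14.99, 11.8 and 10.5 CPM in the AML1/ETO libraries and 25.2, 11.4, 20.6, 8.38 and 16.2 CPM in the controls. The controls themselves ran from below the AML1/ETO range to above it (log2 fold change -0.40 with SE 0.42, adjusted p = 0.563).

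Of the 7 spindle and cytokinesis genes, Racgap1, Nusap1 and Tpx2 fell, Ect2 lay apart without passing, and Anln, Hmmr and Prc1 overlapped. Racgap1, the GTPase-activating partner of KIF23 in centralspindlin, had 33.2, 46.98 and 18.6 CPM in AML1/ETO cells and 86.2, 90.7, 109.7, 86.98 and 89.7 CPM in controls. The controls lay close together apart from control 3, and the groups lay far apart (log2 fold change -1.49 with SE 0.27, adjusted p = 0.00193). Nusap1, a microtubule stabiliser near chromosomes, had 3.94, 14.7 and 19.1 CPM in AML1/ETO cells, against 25.3, 38.7, 77.8, 50.8 and 56.1 CPM in controls. It spread more in both groups but did not overlap (log2 fold change -1.98 with SE 0.50, adjusted p = 0.0124). Tpx2, which activates Aurora A on the spindle, had 25.97, 36.2 and 8.24 CPM in AML1/ETO cells and 60.8, 54.4, 82.4, 66.4 and 50.1 CPM in controls. AML1/ETO library 3 was the lowest by far (log2 fold change -1.42 with SE 0.40, adjusted p = 0.0207), and the call was lost without control 3 (adjusted p = 0.0548). Within a library, the ratio of Kif23 to Racgap1 was 1.30 ± 0.170 in AML1/ETO cells and 0.876 ± 0.151 in controls (SD, n = 3 and 5), so of these centralspindlin partners Racgap1 was the lower relative to the other in AML1/ETO cells, with no overlap.

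Ect2, the exchange factor that switches on RhoA for the cleavage furrow, had 21.7, 14.6 and 0 CPM in the AML1/ETO libraries and 35.9, 59.4, 48.2, 46.1 and 53.5 CPM in the controls. It had 286, 233 and 0 reads in the AML1/ETO libraries, and 0.751% of genes with 200 to 500 reads predicted in the same way were at 0 in AML1/ETO library 3. With that library the gene did not pass (log2 fold change -2.01 with SE 0.90, adjusted p = 0.122), and without it it did (log2 fold change -1.43, adjusted p = 0.00601). Anln, the anillin scaffold of the cleavage furrow, had 27.1, 21.1 and 8.70 CPM in the AML1/ETO libraries and 51.2, 24.9, 30.3, 24.98 and 35.1 CPM in the controls. Its groups met at AML1/ETO library 1 (log2 fold change -0.81 with SE 0.39, adjusted p = 0.148). Hmmr, a microtubule-binding protein of the spindle poles, had 11.4, 14.7 and 10.9 CPM in the AML1/ETO libraries, against 16.5, 14.4, 17.98, 17.9 and 24.95 CPM in the controls. All 3 AML1/ETO values sat near or under the lowest controls (log2 fold change -0.57 with SE 0.34, adjusted p = 0.249). Prc1, which bundles the midzone microtubules, had 39.3, 60.8 and 22.2 CPM in the AML1/ETO libraries and 35.5, 43.5, 55.7, 35.4 and 44.8 CPM in the controls. AML1/ETO library 2 was above every control and library 3 below every control (log2 fold change -0.08 with SE 0.31, adjusted p = 0.902), and its sign turned without AML1/ETO library 3 (0.21) or control 3 (0.07). Of its exon bases 11.1% overlap Rccd1 on the opposite strand. The ratio of Tpx2 to Prc1 was 0.543 ± 0.152 in AML1/ETO cells and 1.49 ± 0.314 in controls (SD, n = 3 and 5), without overlap.

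Of the 5 subunits of condensin I, the complex that compacts mitotic chromosomes, 4 fell and Smc4 did not pass the test. Ncapd2, a HEAT-repeat subunit that helps load the complex onto DNA (chr6:125168007-125191701, minus strand), had 96.1, 159 and 106 CPM in AML1/ETO cells and 254, 319, 303, 286 and 313 CPM in controls. The groups were far apart (log2 fold change -1.29 with SE 0.19, adjusted p = 0.000485). Smc2, the ATPase that pairs with SMC4, had 24.2, 44.7 and 44.7 CPM in AML1/ETO cells, against 83.3, 109, 100.2, 98.3 and 126 CPM in controls. No AML1/ETO library came near the controls (log2 fold change -1.45 with SE 0.24, adjusted p = 0.00109). Ncaph, the kleisin that closes the ring, had 6.06, 13.5 and 22.4 CPM in AML1/ETO cells and 53.8, 51.3, 67.1, 62.9 and 48.8 CPM in controls. It was 4.06-fold lower by means (log2 fold change -2.02 with SE 0.37, adjusted p = 0.00194). Ncapg, the other HEAT-repeat subunit, had 30.1, 21.7 and 11.4 CPM in AML1/ETO cells and 48.6, 44.04, 37.01, 41.8 and 45.5 CPM in controls. It fell without overlap (log2 fold change -1.04 with SE 0.30, adjusted p = 0.0254), but the call was lost without AML1/ETO 2 (adjusted p = 0.0516), AML1/ETO 3 (0.0633), control 1 (0.0535), control 2 (0.0612), control 4 (0.0542) or control 5 (0.0576), and 13.4% of its exon bases overlap Lcorl on the opposite strand.

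Smc4 (chr3:69004738-69034623, plus strand) had 261, 242 and 163 CPM in the AML1/ETO libraries, against 167, 208, 235, 204 and 237 CPM in the controls. AML1/ETO libraries 1 and 2 were above every control and library 3 below every one, and the gene missed the threshold (log2 fold change 0.08 with SE 0.18, adjusted p = 0.818), with a 95% interval from -0.28 to 0.44. The sign turned to -0.06 without AML1/ETO library 1, to -0.07 with scaling by library totals alone and to -0.03 with limma-voom. Relative to Smc4 in the same library, which needs no scaling between libraries, each of the other subunits was lower in every AML1/ETO library than in any control. The ratio of Smc2 to Smc4 was 0.184 ± 0.0907 in AML1/ETO cells and 0.492 ± 0.0420 in controls. The ratio of Ncapd2 to Smc4 was 0.558 ± 0.165 in AML1/ETO cells and 1.41 ± 0.114 in controls. The ratio of Ncaph to Smc4 was 0.0720 ± 0.0586 in AML1/ETO cells and 0.274 ± 0.0472 in controls, and that of Ncapg was 0.0918 ± 0.0227 in AML1/ETO cells and 0.211 ± 0.0489 in controls (SD, n = 3 and 5 throughout). Such a ratio shows unequal change and not which gene changed, and all ratios given here were chosen after the values were seen.

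**Figure D4:**
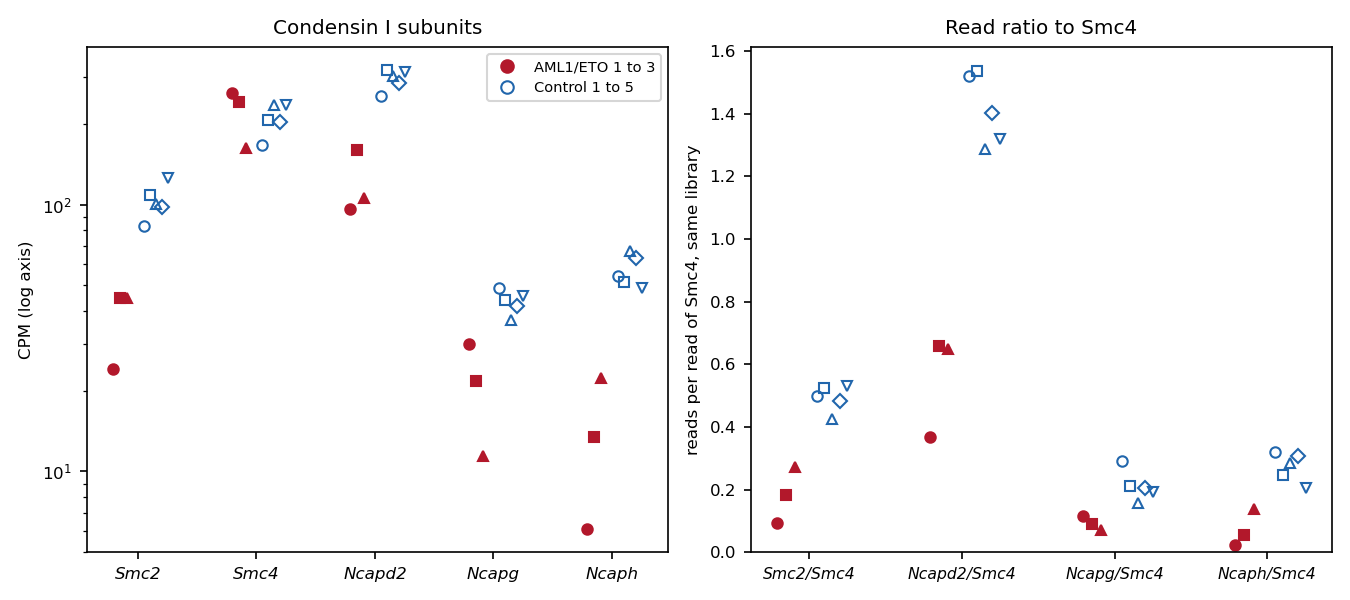
Condensin I subunits as CPM by library and as ratios to Smc4 within a library, AML1/ETO libraries left of controls, each point 1 library, with CPM on a log axis (left) and read ratios from 0 (right). Smc4 overlaps between the groups, whereas the ratio of Smc2 to Smc4 is at most 0.274 in AML1/ETO libraries and at least 0.426 in controls.

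The level of each functional group also varied between the AML1/ETO libraries. A level per library was formed as the median over a group's genes of log2(CPM + 1) minus its mean over the controls. Over all 50 genes it was -1.29, -0.71 and -1.62 in AML1/ETO libraries 1 to 3, and between -0.18 and 0.17 in the controls. AML1/ETO library 2 was the nearest to the controls in every group except the checkpoint genes. The kinesins ran from -2.01 in library 3 to -0.34 in library 2, and the kinetochore genes from -2.07 to -0.57. Condensin genes stayed between -1.60 and -0.96. The checkpoint genes had their lowest level in library 1 (-1.49) and came closest to the controls in library 3 (-0.58). The APC/C activators were the one group whose AML1/ETO levels, -1.02, -0.27 and -0.88, reached the lowest control, at -0.27. These levels are descriptions with no test, and groups were not tested against each other.

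**Figure D5:**
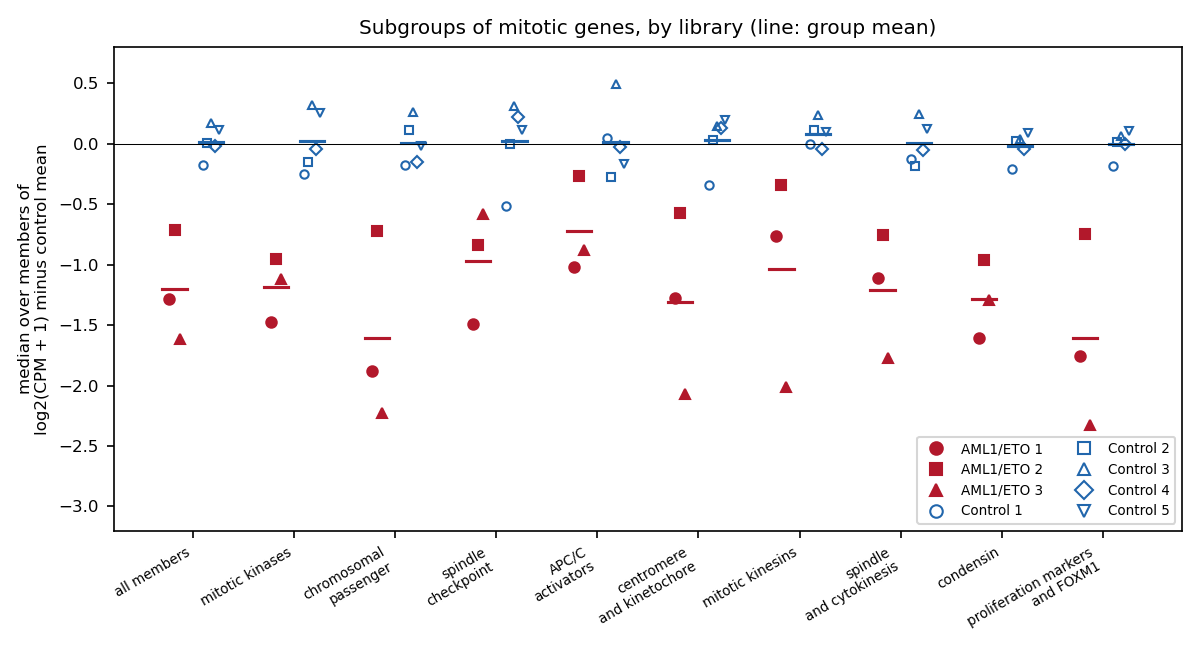
Level of each functional group in each library, as the median over its genes of log2(CPM + 1) minus the control mean, AML1/ETO libraries left of controls, with a line at each mean. AML1/ETO libraries lie below the controls in every group except the APC/C activators, and the kinesins spread most, from -2.01 to -0.34.

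The median coefficient of variation of these genes was 50.01% in AML1/ETO cells and 20.8% in controls. Over all tested genes it was 38.0% in AML1/ETO cells and 28.9% in controls. AML1/ETO library 2 was below every control for 30 genes and above every control for 5, while AML1/ETO library 3 was below every control for 43 and above none. The same counts over all tested genes are not given here, so these are not shown to be particular to mitotic genes. AML1/ETO library 3 also had the most dropout of its group (5.63% of genes predicted 100 to 200 reads). Across the 50 genes, Spearman's rho of the log2 fold change with log2 control CPM per kb was -0.26, and with exon length 0.02. These are descriptions over genes that share libraries, and genes are not independent replicates.

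Other mitotic genes, from 7 lists of 97 genes all of which were tested, were lower more often than higher. Of these, 35 fell and 5 rose, with a median log2 fold change of -0.68. Of all tested genes, 14.2% fell and 11.6% rose, with a median of -0.09. These shares stand beside the counts of each list below. Further kinetochore genes fell in 14 of 32 cases and never rose. Mis12, of the platform on which NDC80 sits, averaged 3.58 ± 0.611 CPM in AML1/ETO cells and 27.2 ± 9.43 CPM in controls (SD, n = 3 and 5; log2 fold change -2.92 with SE 0.44, adjusted p = 0.000607). Cenpt, which links the inner kinetochore to NDC80, averaged 32.9 ± 12.3 CPM in AML1/ETO cells and 95.8 ± 17.2 CPM in controls (log2 fold change -1.54 with SE 0.27, adjusted p = 0.00170). Condensin II, the nuclear condensin, had 1 of 3 listed genes lower, with Smc2 and Smc4 counted above and not in this list. Its Ncapg2 averaged 23.3 ± 2.45 CPM in AML1/ETO cells and 113 ± 18.7 CPM in controls (log2 fold change -2.28 with SE 0.21, adjusted p = 1.91e-05), while Ncaph2 did not pass (log2 fold change -0.36 with SE 0.15, adjusted p = 0.105). Cohesin and separase genes, which hold and cut the bond of sister chromatids, fell in 6 of 12 cases, led by Cdca5, which encodes sororin (log2 fold change -2.36 with SE 0.32, adjusted p = 0.000274), and the core subunit gene Smc3 (log2 fold change -0.76 with SE 0.15, adjusted p = 0.00265), and Pds5b rose. Other spindle and cytokinesis genes fell in 7 of 18, among them Arhgap11a (log2 fold change -1.57 with SE 0.35, adjusted p = 0.00697) and the midbody gene Cep55 (log2 fold change -2.38 with SE 0.57, adjusted p = 0.00923), and Numa1 rose.

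The genes of the APC/C itself had a median close to that of all tested genes. Of 16 genes of its subunits, its inhibitor and its partner enzyme UBE2S, 3 fell and none rose, and their median log2 fold change was -0.03. Of all tested genes, 14.2% fell and 11.6% rose. Fbxo5, which encodes the APC/C inhibitor EMI1, was among the 3 (log2 fold change -1.72 with SE 0.37, adjusted p = 0.00501), as was the subunit gene Anapc7 (log2 fold change -0.69 with SE 0.17, adjusted p = 0.0121). None of 4 further kinesins passed, Kif14 having the smallest p (log2 fold change -1.41 with SE 0.50, adjusted p = 0.0588) and Kif18b the next (log2 fold change -0.72 with SE 0.49, adjusted p = 0.329). The list of other mitotic kinases, which also holds the kinase activator gene Bora, went both ways. In it 4 of 12 genes were lower and 3 higher, beside the same shares of all tested genes. Pkmyt1, a kinase that holds CDK1 inactive, fell (log2 fold change -1.80 with SE 0.32, adjusted p = 0.00171), as did the cytokinesis kinase gene Cit (log2 fold change -1.52 with SE 0.28, adjusted p = 0.00195). Wee1, which also inhibits CDK1, rose (log2 fold change 0.95 with SE 0.20, adjusted p = 0.00404), and so did Nek6 (log2 fold change 0.84 with SE 0.27, adjusted p = 0.0397) and Bora, whose product activates Aurora A (log2 fold change 1.04 with SE 0.29, adjusted p = 0.0228). Wee1, Nek6, Bora, Pds5b and Numa1 were named after their values were seen. The count of 5 that rose was 3 without AML1/ETO library 2 or without AML1/ETO library 3.

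Several lists of genes used as markers of other cells differed between the groups, and their part in the falls was not tested. A list's level does not show that the named cells were present. Beside the counts below, 14.2% of all tested genes fell and 11.6% rose. Of 10 mast cell genes, 7 were tested and all 7 rose, with a summed level of 3234 to 7849 CPM in AML1/ETO libraries and 268 to 342 CPM in controls, and 4 of the 10 were at 0 in every control. Of the mean sum of 5340 CPM in AML1/ETO cells, Cpa3 gave 3844 CPM. Of the mean sum of 297 CPM in controls, Gata2 gave 256 CPM. Mcpt4 and Tpsab1 had reads in AML1/ETO library 1 alone. Neutrophil genes fell in 5 of 9 tested cases (summed 194 to 1085 CPM in AML1/ETO libraries and 1349 to 3499 CPM in controls). Most of these sums was Mpo, which did not pass (adjusted p = 0.0721). It averaged 567 CPM in AML1/ETO cells and 1372 CPM in controls. Camp, Ltf, Ngp, S100a8 and Elane had 0 reads in AML1/ETO libraries 1 and 3. Macrophage and monocyte genes fell in 4 of 7, B cell genes in 4 of 6, T and NK cell genes in 2 of 3 and megakaryocyte genes in 3 of 5, with 1 megakaryocyte gene higher. Erythroid genes gave 1 lower and 1 higher of 7 tested. The erythroid sums overlapped, at 20.1 to 96.9 CPM in AML1/ETO libraries and 18.8 to 82.4 CPM in controls. So did the megakaryocyte sums, at 198.5 to 646.8 CPM in AML1/ETO libraries and 285.5 to 404.6 CPM in controls. For B cells the summed level was 5.30 to 10.8 CPM in AML1/ETO libraries and 76.4 to 222 CPM in controls, and 5 of the 7 markers were at 0 in every AML1/ETO library.

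Markers of the LSK gate and its subsets also differed. Kit, which encodes c-Kit, had 1697, 913 and 1549 CPM in AML1/ETO cells and 413, 427, 378, 469 and 465 CPM in controls. Ly6a, which encodes Sca-1, had 221, 256 and 921 CPM in AML1/ETO cells, against 14.97, 10.2, 23.4, 18.1 and 8.26 CPM in controls. Both rose, Kit by 1.69 in log2 (adjusted p = 6.23e-05) and Ly6a by 4.96 (adjusted p = 2.81e-05), so a defining marker of the labelled cells stood at low levels in the controls. Of 12 long-term stem cell markers, 11 were tested, 6 rose and 3 fell, and their summed level was 654 to 884 CPM in AML1/ETO cells and 327 to 497 CPM in controls. Of 6 multipotent progenitor markers, 3 rose and 1 fell, with 1332 to 2051 CPM in AML1/ETO cells and 1091 to 1452 CPM in controls. How these subsets bear on the mitotic genes was not tested.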

How the data were processed

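The deposited values are raw read counts per gene, unpooled, with a column for each library. The submitters' processing notes list the build mm10, featureCounts 1.5.0-p3 and HISAT2 2.0.5. The sources used here do not give the annotation release, the strand setting or the handling of multimapping reads. Symbols and coordinates came from GENCODE M21 on GRCm38 (54495 of 54532 identifiers matched), promoters from RefSeq on GRCm38.p6. The deposited counts went unchanged into edgeR 4.0.16 under R 4.3.3 (filterByExpr, TMM, glmQLFit and glmQLFTest, two-sided, no covariate) over all 8 libraries, with Benjamini-Hochberg adjustment over 15009 genes. SEs came from the quasi-likelihood F, and the biological coefficient of variation was 72.6%. The procedure was tested on simulated counts, whose results are not given here and do not measure error in these libraries. No pair of libraries agreed within counting noise. Levels of gene groups used a pseudocount of 1 CPM. The members, the other lists and the alternatives were chosen with earlier results of these data known. Values per library were given for the 3 smallest p in each group and for every gene that did not pass, and for the remaining fallen genes as well, and group means or fold changes for the 2 genes of each other list with the smallest p. The 18 alternatives were DESeq2 1.42.0, limma-voom 3.58.1, 3 scalings, 2 filters, each library left out, both first libraries left out, the replicate number as a block, and genes on X and Y left out. Same-numbered libraries of the groups did not deviate together (correlations 0.07, -0.05 and 0.06), so the numbers pair nothing.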

Additional observations from a re-analysis of the deposited data

Results flagged for a closer look

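In 3 of the 50 genes, 1 of the 5 controls lay far from the others, by the gap to the nearest value over the whole range (limit 0.71). Chance alone gives about 1 in 20 groups. Plk4 had 101.7 CPM in control 5, where the other controls had 65.7 to 76.1 CPM. Ndc80 had 14.1 CPM in control 1, where the others had 32.2 to 38.0 CPM. Racgap1 had 109.7 CPM in control 3, where the others had 86.2 to 90.7 CPM. All 3 genes passed the test with and without the library named.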

How the results depend on the processing

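Of 899 values of a gene under an alternative, 799 kept their direction and their side of the threshold, 55 lost the call, 22 gained it and 23 changed sign. The number of members that fell was 26, 19 to 30 with 1 library left out, 29 with DESeq2, 30 with library totals, 22 without both first libraries and 20 with the replicate block, and 0 rose under each. Their median log2 fold change ran from -1.68 to -1.15 with 1 library left out. Of the other mitotic genes, 35 fell and 5 rose, 29 to 38 and 3 to 6 with 1 library left out, 17 and 2 with the replicate block, and 38 and 3 with library totals. In the block, which rests on numbers that pair nothing, Ube2c, Cenpe, Ndc80, Kif4, Tpx2 and Ncapg lost theirs. Signs turned for genes near 0: Ttk gave 0.00402 with the replicate block, and Fzr1 gave 0.0452 with DESeq2, 0.00768 with limma-voom, 0.0444 with DESeq2 size factors, 0.0325 with upper-quartile scaling, 0.00886 with no filter, 0.0236 with a filter of 1 CPM in 3 libraries and 0.10 without both first libraries. Smc4 gave -0.0258 with limma-voom, -0.0699 with library totals and -0.13 without both first libraries. With 1 library left out, Plk1 ran from -0.34 to 0.10, Ttk from -1.01 to 0.20, Fzr1 from -0.19 to 0.0580, Cenpf from -0.83 to 0.0650, Prc1 from -0.49 to 0.21 and Smc4 from -0.0579 to 0.25. The cause was not tested. Scaling by library totals shifted the median of all genes by -0.150 and limma-voom by -0.121. Of all called genes, 44.9% were higher, against 34.2% with library totals. Group levels with a pseudocount of 0.1 or 5 CPM moved by less than the spread between libraries. Depth limits the genes of few reads: 2 members had a library at 0.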
